A study of Mus musculus with 7 samples.

Results

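The mitochondrial ribosomal RNA genes mt-Rnr1 and mt-Rnr2 were followed base by base in a table of reads from a study of RNA that immunoprecipitates with Ezh2. Ezh2 is the methyltransferase of the Polycomb complex PRC2, and the material was nuclear lysate of embryonic stem cells from mice. Both genes were chosen by name, with earlier results of these data known. They are 2 of 55341 annotated gene symbols and 2 of the mitochondrial genes, of which 35 others are annotated. The labels describe 7 RNA immunoprecipitation libraries, in which an antibody is added to a nuclear lysate, the bound complexes are collected on beads, and their RNA is turned into cDNA by template switching and sequenced. Cells grown with LIF and otherwise untreated gave all of them. The Ezh2 null line, labelled M.musculus by strain, gave 1 library with the Ezh2 antibody. Cells of strain 129X(M.castaneusX129) gave 5 libraries with the Ezh2 antibody and 1 with normal rabbit IgG. Of the 5, 1 is labelled a technical and 1 a biological replicate, and 2 are deeper runs of samples that had already given a library. One table of distinct read sequences with their counts was used, with 34072479 reads, and no label ties it to any of the libraries. It is therefore treated as 1 pool without replicates, no value below is an enrichment over Ezh2 null cells or over IgG, and no test between groups was made. Of 8 stem cell markers all had sense reads, from 37 for Nanog to 4570 for Tdgf1. Of all 55341 symbols, 27858 had a read on either strand. Of the markers, 7 had 50 or more sense reads, as did 12.6% of all symbols. Antisense reads outnumbered sense reads for Esrrb only (265 and 243), and Pou5f1 had 368 and 429. All intervals are 95% intervals of counting error, which take each read as a separate molecule although PCR copies cannot be recognised.

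Mitochondrial ribosomes translate the few proteins that mitochondrial DNA encodes. mt-Rnr1 encodes the RNA of the small ribosomal subunit and mt-Rnr2 that of the large subunit, and both are cut out of a long transcript in which transfer RNAs stand between them. Both strands of mitochondrial DNA are transcribed along almost their full length, so that RNA complementary to the ribosomal RNAs also arises, and most of it is known to be degraded. Below, sense means RNA of the strand of the annotated gene, and antisense the complementary RNA. A sequenced read is the complement of its RNA, and a start position is the gene base that faces the first matched base of the read, after the 6 leading bases of each read were left out. Positions within a gene are counted from 1 at its first base.

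The reads piled up at a few places, and the stretches under the most read start position of each gene and strand are shown first because most of what follows turns on them. They are given 5′ to 3′ in the sense of the ribosomal RNA, from the GENCODE transcripts, on the plus strand of GRCm38. Lower case marks 34 matched bases and capitals mark the 6 bases that face the leading part of the read.
mt-Rnr1 sense, chrM:931-970: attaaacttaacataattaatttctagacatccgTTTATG
mt-Rnr1 antisense, chrM:659-698: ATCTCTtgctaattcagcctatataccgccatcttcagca
mt-Rnr2 sense, chrM:2181-2220: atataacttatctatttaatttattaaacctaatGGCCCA
mt-Rnr2 antisense, chrM:2086-2125: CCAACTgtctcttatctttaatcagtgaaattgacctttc
The most frequent deposited sequence at each of these positions matched its stretch over all 40 bases with 0 differences, as the reverse complement at the sense positions and as written at the antisense ones. These single sequences had 2681 reads at the mt-Rnr1 sense position, 6322 at the mt-Rnr1 antisense position, 14832 at the mt-Rnr2 sense position and 3960 at the mt-Rnr2 antisense position. Both sense stretches are rich in A and T. G and C made up 23.5% of the 34 matched bases in mt-Rnr1 and 11.8% in mt-Rnr2, and 9.22% and 0.904% of all 34-base windows of these genes held less. The antisense stretches held 44.1% G and C in mt-Rnr1 and 32.4% in mt-Rnr2, against 35.8% and 35.4% over the whole genes.

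Both ribosomal RNAs were among the genes with most reads per length in the table as deposited. The name of the table carries a tag that may stand for the removal of ribosomal reads, and whether such a step took reads of these genes was not tested, so the levels are those of the reads that remain. mt-Rnr1 (mitochondrial chromosome, bases 70 to 1024, plus strand, 955 bases) had 71428 sense reads (Poisson interval 70905 to 71954) and 40384 antisense reads (39991 to 40780). mt-Rnr2 (bases 1094 to 2675, plus strand, 1582 bases) had 93891 sense reads (93291 to 94494) and 28002 antisense reads (27675 to 28332). In RPKM, which scales reads by gene length and by all reads searched, the sense level was 2372 for mt-Rnr1 and 1882 for mt-Rnr2, at ranks 4 and 5 of all 55341 symbols. Both genes had 50 or more sense reads, as did 12.6% of all symbols. Together the sense and antisense reads of the pair were 2.05% of the reads given to a single gene and 17.7% of the mitochondrial ones. Reads that matched several genes equally well are not among these. mt-Co2, mt-Co3 and mt-Nd4l were given 0 reads on either strand, and whether reads of these genes were left out in this way was not tested. The 17.7% is thus a share of the reads given to a gene, not of mitochondrial RNA.

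Which of the 2 ribosomal RNAs stood higher per length depended on what was counted. Sense reads per kb in mt-Rnr1 were 1.26 times those in mt-Rnr2 (interval 1.25 to 1.27). The ratio was 1.25 by distinct sequences, and it turned round to 0.738 by start positions and to 0.642 with the most read bins of both strands left out. Start positions measure how widely the reads were spread and not how abundant an RNA was. For antisense reads per kb it was 2.39 by reads, 2.33 by distinct sequences and 0.739 by start positions. Without the most read start position of each strand the sense ratio rose to 1.55. The order of the RNAs thus changed with the way of counting, and the cause was not tested. In 36-base reads, one of the read lengths described below, the sense ratio was 0.929 (0.873 to 0.988).

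Sense reads of mt-Rnr1 lay mostly near its 3′ end. Reads were placed in 50-base bins by the middle of their matched part. The bin of bases 851 to 900 held 54224 sense reads, 75.9% of the sense reads of the gene (exact binomial interval 75.6 to 76.2). It also held 4079 antisense reads. The next sense bins were 451 to 500 with 5656 reads and 751 to 800 with 2689. The median bin had 338 sense reads. Within the leading bin the reads were spread over neighbouring starts, with 9893 at position 895, 9430 at position 893 and 8350 at position 900, so no single position held most of it. From base 701 to base 850 sense RNA was almost alone, with 2586, 2689 and 2480 sense reads in its 3 bins against 42, 17 and 11 antisense reads.

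Antisense reads of mt-Rnr1 lay elsewhere, further upstream in the gene. The bin of bases 601 to 650 held 29893 antisense reads, 74.02% of the total (73.6 to 74.4), where sense reads numbered 519. The second antisense bin was 851 to 900, the leading sense bin, and the third was 401 to 450 with 2322 reads. Position 596 alone had 13627 antisense reads, 33.7% of the total (33.3 to 34.2), position 595 had 5143 and position 600 had 2283. The most read antisense start, at 596, and the most read sense start, at 895, enclose 300 bases, and the reads from them run toward each other.

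**Figure D1:**
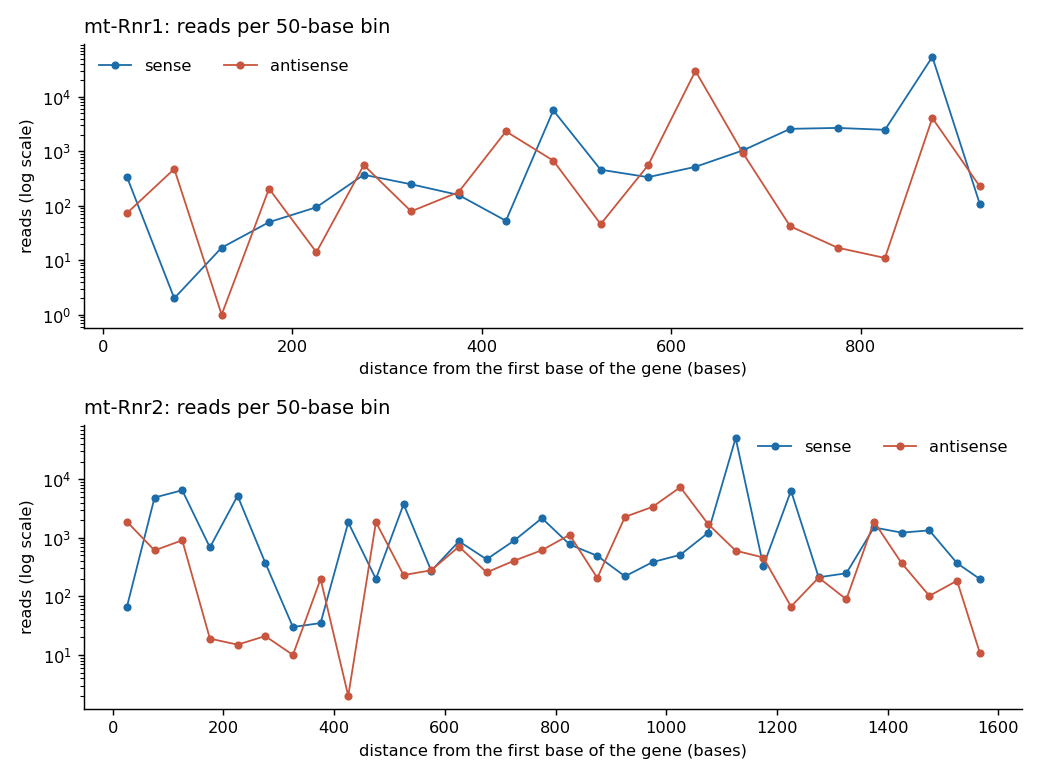
Sense and antisense reads per 50-base bin along mt-Rnr1 (upper panel) and mt-Rnr2 (lower panel), with distance from the first base of the gene on the x axis and reads on a log y axis; a bin without reads has no point. The leading sense bins stand at 54224 reads in mt-Rnr1 and 50359 in mt-Rnr2, and the leading antisense bins lie upstream of them at 29893 and 7309 reads.

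mt-Rnr2 showed the same arrangement with a less concentrated antisense side. Its leading sense bin, bases 1101 to 1150, held 50359 reads, 53.6% of the total (53.3 to 53.95), against 603 antisense reads. Bases 101 to 150 followed with 6479 sense reads and bases 1201 to 1250 with 6359. Position 1121 had 28131 sense reads, 29.96% of the total, position 1120 had 14234 and position 1239 had 4846. The leading antisense bin was 1001 to 1050 with 7309 reads, 26.1% of the total (25.6 to 26.6), next to 951 to 1000 with 3379 and 901 to 950 with 2275. Antisense starts led at position 999 with 4157 reads, and the span from there to the sense start at 1121 was 123 bases, again with the reads running toward each other.

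The strand therefore changed from bin to bin rather than standing at one level over the gene. Of 18 bins of mt-Rnr1 with 50 or more reads, antisense reads led in 7, sense reads in 10, and the interval of the share included 50% in 1. In mt-Rnr2 the numbers were 10, 19 and 2 of 31 bins. In mt-Rnr1 the share ranged from 0.442% at bases 801 to 850 to 99.6% at bases 51 to 100. In mt-Rnr2 it ranged from 0.109% at bases 401 to 450 to 96.6% at bases 1 to 50. Of the 1883 antisense reads in bases 1 to 50 of mt-Rnr2, 577 had 40 bases and 33 had 36 bases. The others were shorter reads, described further below. Across bins, log2 sense and log2 antisense counts (pseudocount 1) had a Pearson correlation of 0.381 over 20 bins of mt-Rnr1 and of 0.0399 over 32 bins of mt-Rnr2. The last bin of mt-Rnr1, bases 951 to 955, is too short for the middle of any matched part to fall in it. It entered with 0 reads on both strands, a point fixed in advance on which the value of 0.381 rests in part. All bins share 1 table and its depth, so the correlations are descriptions.

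Few positions held most reads on either strand. In mt-Rnr1 the upper 50% of sense reads came from 5 of 287 start positions and of antisense reads from 3 of 231. In mt-Rnr2 they came from 3 of 644 sense positions and from 19 of 518 antisense positions. The reads still covered most of both RNAs. Sense reads left 43 of 955 bases of mt-Rnr1 and 42 of 1582 bases of mt-Rnr2 uncovered, and antisense reads left 98 and 19. A distinct sense sequence had 13.1 reads on average in mt-Rnr1 and 12.997 in mt-Rnr2.

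**Figure D2:**
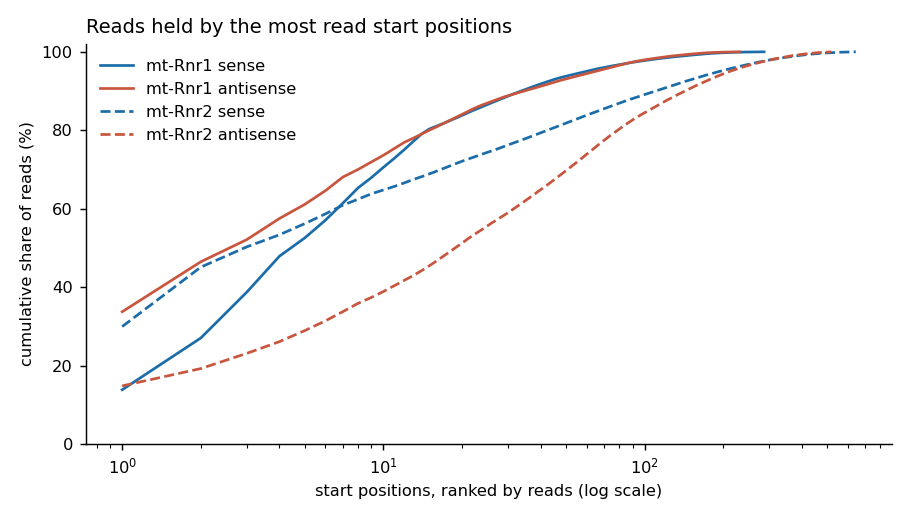
Cumulative share of reads (y axis, percent) against start positions ranked by their reads (x axis, log scale) for each gene and orientation. The curves of mt-Rnr1 antisense and mt-Rnr2 sense reads pass 50% at 3 positions, that of mt-Rnr1 sense reads at 5, and that of mt-Rnr2 antisense reads at 19.

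Over the whole genes, sense RNA was in the majority in both. The antisense share was 36.1% of reads in mt-Rnr1 (35.8 to 36.4) and 22.97% in mt-Rnr2 (22.7 to 23.2), by distinct sequences 40.6% and 26.9%, and by start positions 44.6% in both. Neither gene had an interval above 50%, a rule that 16% of all genes with 50 or more reads met. This set the ribosomal RNAs apart in value from the mitochondrial messenger RNAs of the same strand, though no test of that difference is possible with 1 pool. Of 13 protein-coding mitochondrial genes, 8 on the plus strand had 50 or more reads, and their antisense shares ran from 83.3% to 96.2%. mt-Nd1, the complex I gene just downstream of the ribosomal RNAs, had 16048 sense and 83747 antisense reads. Transfer RNA genes of the plus strand with 50 or more reads went both ways. Their antisense shares ran from 5.51% for mt-Tt (127 reads) and 8.57% for mt-Tv (70 reads) to 100% for mt-Ts2 (188 reads). A sense majority was therefore not particular to the ribosomal RNAs.

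Likeness was measured by the differences in antisense share in 36-base and in 40-base reads, summed, among 12 mitochondrial genes with 50 or more reads of each length. The nearest to mt-Rnr1 was mt-Rnr2, at 51.7 percentage points, then mt-Nd4 at 67.1 and mt-Cytb at 67.4. The nearest to mt-Rnr2 was mt-Nd6, a complex I gene of the minus strand, at 37.2 points, with an antisense share of 1.90% in 36-base and 3.88% in 40-base reads. It was followed by mt-Rnr1 at 51.7 and mt-Nd4 at 118.8. Antisense is counted against the strand of each gene, so most reads of mt-Nd6 and most reads of mt-Rnr2 came from RNA of opposite strands.

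The 36-base and 40-base reads, which the table mixes without saying where each came from, gave different strand balances for mt-Rnr1. Of its 36-base reads, 59.5% were antisense (57.99 to 61.1; 2354 of 3954 reads), against 35.2% of its 40-base reads (34.9 to 35.5; 37546 of 106761). In mt-Rnr2 the share was 20.9% in 36-base reads (19.5 to 22.2) and 22.2% in 40-base reads (21.9 to 22.4). Most of the antisense 36-base reads of mt-Rnr1, 1720, lay in its leading antisense bin, 601 to 650, while the leading sense bin held 970 sense ones. Without the leading bins of both strands the antisense share of mt-Rnr1 was 35.1% in 36-base reads (32.05 to 38.2) and 27.99% in 40-base reads (27.4 to 28.6), which is below 50% at both lengths and still higher in 36-base reads. Counted by distinct sequences over the whole gene it was 51.8% in 36-base reads (49.3 to 54.4), an interval that includes 50%, and 38.2% in 40-base reads (37.1 to 39.3). Counted by start positions it was 45.9% in 36-base and 45.3% in 40-base reads, with intervals that overlap.

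The leading bin was the same at both lengths for sense reads of both genes and for antisense reads of mt-Rnr1, and another one for antisense reads of mt-Rnr2. The leading sense bin of mt-Rnr1 held 60.6% of its 36-base sense reads (58.2 to 63.03) and 76.8% of the 40-base ones (76.4 to 77.1), and that of mt-Rnr2 held 50.1% (48.3 to 51.97) and 53.8% (53.5 to 54.1). The leading antisense bin of mt-Rnr1 held 73.1% of 36-base and 73.8% of 40-base antisense reads, with overlapping intervals. In 36-base antisense reads of mt-Rnr2 the leading bin was 1351 to 1400 with 161 reads, 21.4%, against 6.63% of the 40-base ones. Bases 1001 to 1050, which led in 40-base reads, held 14.2% of the 36-base (11.8 to 16.9) and 27.7% of the 40-base antisense reads (27.1 to 28.2). Across bins, log2 counts of 36-base and 40-base reads had Pearson correlations from 0.810 to 0.909 over the 4 gene and strand pairs, as a description. Those of mt-Rnr1 include its last bin, bases 951 to 955, which no read can fill.

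Both ribosomal RNAs were poor in 36-base reads. These made up 3.54% of the reads of mt-Rnr1 (3.43 to 3.65) and 2.96% of those of mt-Rnr2 (2.86 to 3.05), against 9.84% in the median of 845 genes with 1000 or more reads. Both were more than 2-fold below that median, as were 12.4% of these genes. The protein-coding mitochondrial genes with 50 or more reads ran from 2.58% to 6.56%, so the low share was not peculiar to the ribosomal RNAs. The upper end was mt-Atp6, with 4 of 61 reads (1.82 to 15.9). Among those with 1000 or more reads the highest was mt-Co1 at 6.20% (6.09 to 6.31). Sense and antisense reads of mt-Rnr1 differed here, at 2.24% and 5.83%, more than those of mt-Rnr2, at 3.04% and 2.69%.

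**Figure D3:**
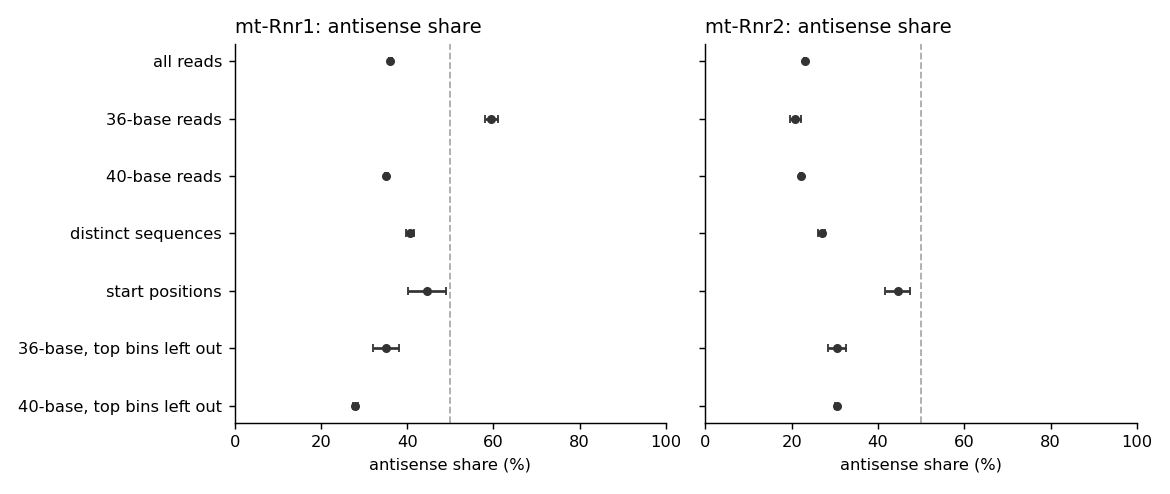
Antisense share in percent (x axis, points with 95% Clopper-Pearson intervals) of mt-Rnr1 and mt-Rnr2 for 7 ways of choosing or counting reads; the dashed line marks 50%. Only the 36-base reads of mt-Rnr1, at 59.5%, lie above the line, and they fall to 35.1% without the most read bins of both strands.

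Reads of mt-Rnr1 matched the reference more closely than those of mt-Rnr2. Exact matches were 94.996% of the mt-Rnr1 reads (94.9 to 95.1) and 87.9% of the mt-Rnr2 reads (87.7 to 88.1). By distinct sequences these shares were 53.2% and 44.9%. Exact sequences were read 21.7 times on average in mt-Rnr1 and 24.2 times in mt-Rnr2, and mismatched ones 1.30 and 2.71 times. By distinct sequences, exact matches were commoner in 36-base than in 40-base reads, at 84.6% and 46.8% in mt-Rnr1 and at 72.04% and 41.1% in mt-Rnr2. By reads the lengths were close, at 93.6% and 95.05% in mt-Rnr1 and at 89.2% and 87.7% in mt-Rnr2.

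How exact and mismatched sequences differed in strand balance depended in mt-Rnr1 on what was counted, while in mt-Rnr2 the exact ones had the higher antisense share by reads and by distinct sequences. In mt-Rnr1 the antisense share was 36.02% of exact reads (35.7 to 36.3) and 38.1% of mismatched reads (36.8 to 39.3). In mt-Rnr2 it was 23.6% of exact reads (23.3 to 23.8) and 18.7% of mismatched reads (18.1 to 19.4). By distinct sequences the share was 45.1% of exact (43.7 to 46.5) and 35.6% of mismatched sequences (34.2 to 37.04) in mt-Rnr1, opposite in direction to the reads, and 32.7% and 22.2% in mt-Rnr2. By start positions the exact and mismatched shares had overlapping intervals in both genes, at 44.9% and 42.3% in mt-Rnr1 and at 43.5% and 42.2% in mt-Rnr2.

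No position of either RNA had another base in most of its reads. Mismatch rates were taken at positions covered by 100 or more reads of 1 orientation, which were 558 sense and 436 antisense positions in mt-Rnr1 and 1233 and 1007 in mt-Rnr2. The number above 50% was 0 in each, and none of the positions of mt-Rnr1 passed 10%, while 11 sense and 8 antisense positions of mt-Rnr2 did. A read with more than 2 differences was not matched, so closely spaced differences would be missed. The median position had a rate of 0.0577% in sense and 0.0747% in antisense reads of mt-Rnr1, and of 0.0848% and 0% in mt-Rnr2.

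The positions named here had most mismatched reads. That number grows with coverage, so their place in and near the piles of reads follows largely from the choice. The highest rates were at positions not named, sense position 670 of mt-Rnr1 (5.23%) and antisense position 1047 of mt-Rnr2 (32.6%). Substitutions are written on the ribosomal RNA strand as the reference base, its position in the gene and the base read. In sense reads of mt-Rnr2, position 1115 was mismatched in 3883 of 47286 reads, or 8.21% (7.97 to 8.46), mostly as A1115C, which 288 distinct sequences carried. Antisense reads there were mismatched in 1 of 389. Position 1126 was mismatched in 1015 of 4340 sense reads, nearly always as C1126A, and position 1093 in 861 of 47086, mostly as A1093C. In antisense reads of mt-Rnr2, position 987 was mismatched in 496 of 1924 reads, or 25.8% (23.8 to 27.8), mostly as G987T, position 986 in 413 of 1960, mostly as C986A, and position 932 in 234 of 1692 as C932G. These antisense reads carried the difference mostly at the start of the matched part, whose first base is the seventh of the read. It was the eighth base for G987T in 89.5% of reads and for C932G in 79.5%, and the seventh for C986A in 100%. In mt-Rnr1 the leading sense positions, 889, 892 and 869, had rates of 0.450%, 0.391% and 0.286%, and the leading antisense positions, 616, 605 and 891, had 0.348%, 0.323% and 3.89%.

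**Figure D4:**
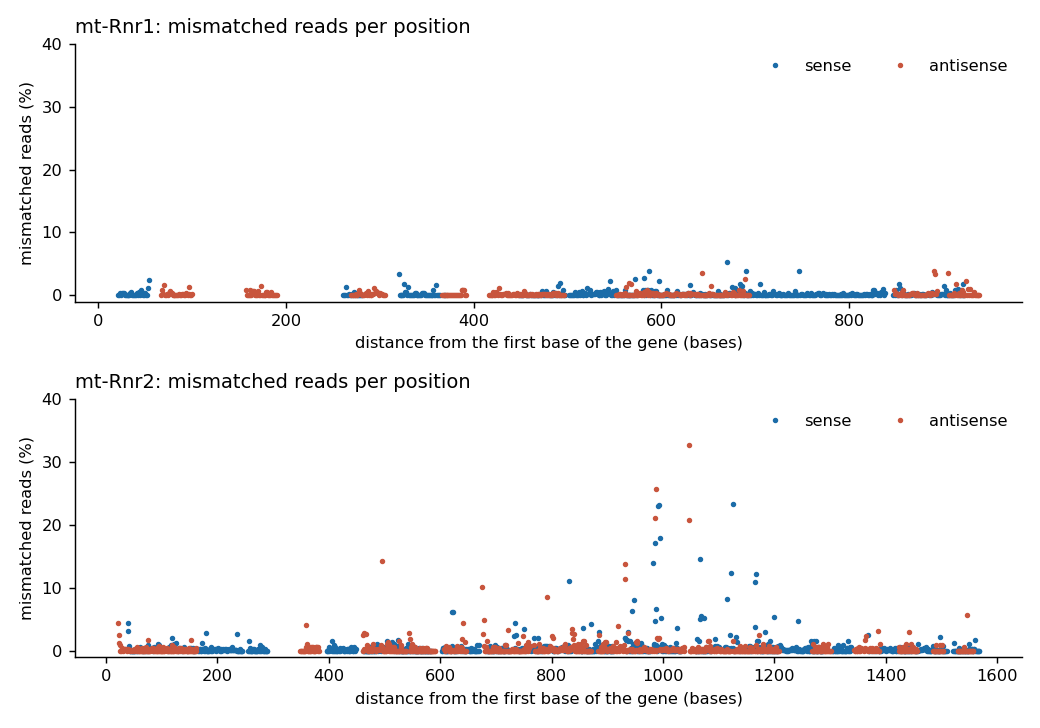
Share of reads with a mismatch (y axis, percent) at each position covered by 100 or more reads of 1 orientation, against the distance from the first base of the gene (x axis). The highest position of mt-Rnr1 reaches 5.23% and that of mt-Rnr2 32.6%, and 16 of the 19 points of mt-Rnr2 above 10% lie from base 901 to base 1200.

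Part of mt-Rnr2 has a near copy among the searched transcripts. This was Gm20594, annotated as a protein-coding gene on chromosome 6. Reads that matched another gene as well as mt-Rnr2 were given to neither, and they numbered 813 sense and 677 antisense. A further 372 sense and 7574 antisense reads, which were kept, matched another gene with only 1 more mismatch. Over both kinds, that gene was Gm20594 for 1182 sense and 8161 antisense reads, which lay between bases 683 and 1077 of mt-Rnr2. Gm20594 itself received 2 sense and 4 antisense reads. The 3 leading antisense bins of mt-Rnr2, from base 901 to base 1050, and its leading antisense start at 999 lie in this span. How many of their reads have this neighbour is not given here. Of the 19 positions and orientations of mt-Rnr2 with a mismatch rate above 10%, 13 lay in this span, and the part of the near copy in them was not tested. Without the reads that have a neighbour so close, the antisense share of mt-Rnr2 was 17.9%. In mt-Rnr1 only 4 sense reads had one. Nuclear copies outside the annotated transcripts were not searched.

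Reads that ran across the ends of the ribosomal RNAs were fewer than at the median point inside them, but many inside points had fewer still. Reads were matched to the stretch from mt-Tf to mt-Nd1, put together from the transcripts, and had to reach at least 5 bases to each side. The base between mt-Tf and mt-Rnr1 is in no transcript and was left unknown, so a read across it could use up an allowed mismatch. Whether reads were lost there was not tested. Between mt-Tf, the transfer RNA for phenylalanine, and mt-Rnr1 there were 21 sense reads (12.999 to 32.1) and 3 antisense reads. Between mt-Rnr1 and mt-Tv, the transfer RNA for valine, there were 33 sense reads (22.7 to 46.3) and 4 antisense reads, against a median of 92 sense and 44 antisense reads across points inside mt-Rnr1. Between mt-Tv and mt-Rnr2 there were 3 sense reads (0.619 to 8.77) and 4 antisense reads. Between mt-Rnr2 and mt-Tl1, a transfer RNA for leucine, there were 147 sense reads (124.2 to 172.8) at 9 start positions and 13 antisense reads, against medians of 285 and 137 inside mt-Rnr2. Coverage was uneven enough that 29.8% of points inside mt-Rnr1 were crossed by fewer sense reads than its 5′ end and 33.4% by fewer than its 3′ end. In mt-Rnr2 it was 5.28% for the 5′ end and 36.4% for the 3′ end. The transfer RNA genes themselves had few reads within their bounds, with 10 sense and 0 antisense on mt-Tf, 64 and 6 on mt-Tv, and 19 and 70 on mt-Tl1.

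In mt-Rnr2, and among sense reads of mt-Rnr1, the shorter reads were concentrated at other places than the long ones. In bases 251 to 300 of mt-Rnr1, 2 of 371 sense reads had 36 bases and 19 had 40 bases. Reads of 26 to 35 bases numbered 613 sense and 484 antisense in mt-Rnr1, and 113 sense and 1372 antisense in mt-Rnr2, an antisense share of 44.1% and 92.4%. The share of mt-Rnr2 rested on repeated reads, since it was 56.2% by distinct sequences (46.9 to 65.2) and 36.8% by start positions (24.4 to 50.7). The antisense ones of mt-Rnr2 formed a nested series. Reads that matched over their whole length without a mismatch and had their first base at position 26 of mt-Rnr2 numbered 1797 among those of 20 to 35 bases, 95.2% of all such antisense reads of mt-Rnr2, with 649 reads of 30 bases, 229 of 29, 151 of 28 and a second high point of 341 reads of 24 bases. The most frequent lengths are printed as read, which is also the sense of the ribosomal RNA, on the plus strand of GRCm38.
24 bases, chrM:1119-1142: aaatataattatactattatataa
30 bases, chrM:1119-1148: aaatataattatactattatataaatcaaa
At that first base there were 0 reads of 36 bases and 3 of 40 bases, and none of 32 to 35 bases. Reads under 20 bases were not counted. On the sense side of mt-Rnr2 the most read first base of short reads was position 447, with 332 reads under 36 bases, of which 123 had 23 bases. In mt-Rnr1 the corresponding places were position 597 for antisense reads, with 334 reads and most of them of 33 or 32 bases, and position 287 for sense reads, with 191 reads, all of 27 bases. These places were chosen after the lengths had been seen.

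**Figure D5:**
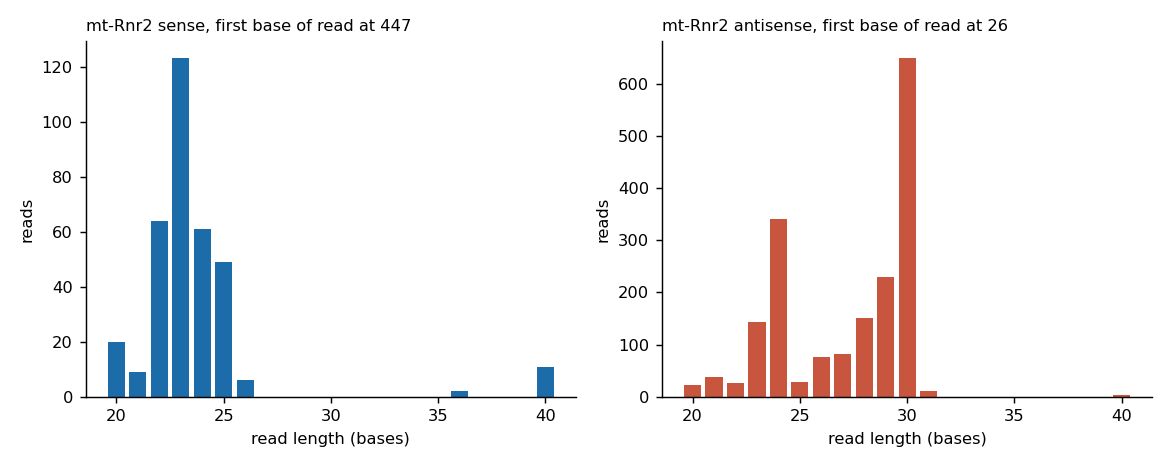
Reads (y axis) by read length in bases (x axis) at the first base of the read that held most short reads of mt-Rnr2, position 447 for sense reads (left) and position 26 for antisense reads (right), counting whole-length exact matches. Antisense reads reach 341 at 24 bases and 649 at 30 bases, with 3 at 40 bases, and sense reads reach 123 at 23 bases.

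The 6 leading bases, left out before matching, followed the ribosomal RNA in part. All 6 matched in 34.01% of sense and 46.3% of antisense reads of mt-Rnr1, and in 69.3% and 68.7% of those of mt-Rnr2. By distinct sequences these shares were lower, at 20.3% and 22.2% in mt-Rnr1 and at 40.4% and 38.96% in mt-Rnr2. The first base was mismatched most often, in 32.7% and 28.2% of the mt-Rnr1 reads and 22.3% and 21.9% of the mt-Rnr2 reads, and the sixth in 6.11%, 3.82%, 2.86% and 7.14%.

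Messenger RNAs for the proteins that build mitochondrial ribosomes were present at far lower levels per length. Of 30 small-subunit protein genes, 9 had 50 or more sense reads, and of 49 large-subunit genes 19 did, where 12.6% of all symbols do. Their median levels were 0.247 and 0.362 RPKM, beside a median of 0 over all symbols. Mrps25 led the small subunit with 941 sense reads (882 to 1003), followed by Mrps9 with 720, Mrps30 with 281 and Mrps2 with 250. Mrpl24 led the large subunit with 866 (809 to 926), followed by Mrpl42 with 626, Mrpl51 with 390 and Mrpl16 with 244. The antisense interval lay above 50% in 1 of 13 small-subunit and 3 of 24 large-subunit genes with 50 or more reads, where 16% of all genes do.

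Genes that make, trim and keep the ribosomal RNAs also had levels far below those of the ribosomal RNAs themselves. The share of genes with 50 or more sense reads, 12.6% over all symbols, was 22.2% for transcription, 15.4% for cutting and modification, 54.5% for assembly and 66.7% for storage and decay. Among 9 transcription genes 2 had 50 or more sense reads, Tfam, which packages mitochondrial DNA and starts its transcription, with 462, and Mterf4, a mitochondrial termination factor family member, with 79. Mterf3 had 47 and Mterf1a had 33. Of 13 annotated genes of RNA cutting and modification 2 did, Trmt10c, a subunit of the enzyme that cuts the 5′ ends of transfer RNAs, with 57, and Elac2, the nuclease for their 3′ ends, with 53 sense and 318 antisense reads. The pseudouridine synthase family gene Rpusd4 had 32 and 1110008L16Rik had 27. Of 11 ribosome assembly genes 6 did, led by the GTPase gene Noa1 with 154, the helicase gene Dhx30 with 131, Fastkd2 with 110 and the GTPase gene Mtg1 with 109. Of 12 genes of RNA storage and decay 8 did, led by Lrpprc, which stabilises mitochondrial messenger RNAs, with 383, Pnpt1, the polynucleotide phosphorylase, with 142, Grsf1, an RNA-granule protein, with 139, and Supv3l1, the helicase partner of Pnpt1, with 98. The median levels of these 4 lists were 0.249, 0.144, 0.391 and 0.456 RPKM. Antisense reads led, by the same interval, in 0 of 3 transcription, 2 of 3 cutting and modification, 0 of 7 assembly and 0 of 9 storage and decay genes with 50 or more reads, beside 16% over all genes.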

How the data were processed

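The deposited table holds a read count for each of 6540936 distinct sequences of 12 to 36 or 40 bases. The authors' counts are not scaled. The sources used here do not give an aligner and describe no filter, but the table's own name carries tags that may stand for unique sequences and for the removal of ribosomal and homopolymer reads; which sequences these would be is not stated. The submitters' processing notes name mm9, but the table has no coordinates, and those printed are GRCm38 (GENCODE M21). Reads of 26 bases or more (31529044) lost 6 leading bases and were matched to the GENCODE transcripts with bwa 0.7.19 (up to 2 mismatches, no gaps, up to 1000 placements). Best placements decided the gene: a single gene in sense (any antisense hits then had to lie on overlapping genes), or otherwise a single gene in antisense. Intervals are Poisson or Clopper-Pearson (scipy 1.17.1), and a count of 0 allows 3 counts. Tested on simulated data, 100% of 2000 mt-Rnr1 and 97.05% of 2000 mt-Rnr2 reads returned to their place. Of 20000 reads of other genes, from transcripts drawn at random, 0 went to either. Simulated reads had 30 or 34 matched bases, and near copies such as Gm20594 were not sampled on purpose. The 0 therefore says little about near copies or shorter matches. Named genes were the 4 of each list with most sense reads, the neighbouring genes, the 3 mitochondrial genes nearest in antisense share, and the 3 most read bins, starts and mismatched positions of each gene and strand. Gm20594 and the stem cell markers were added after values were seen. The members and lists were chosen with earlier results of these data known. Alternatives changed what was counted, the mismatches, lengths and placements allowed, and left out the most read places.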

Additional observations from a re-analysis of the deposited data

Results flagged for a closer look

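Reads of 20 to 25 bases were too short for the search and were looked at apart, as whole reads without a mismatch. mt-Rnr2 had 634 antisense reads of these lengths (585.6 to 685.3) and 399 sense reads (360.8 to 440.1), and mt-Rnr1 had 14 sense reads (7.65 to 23.5). They are listed because reads of these lengths enter no value of the search. The mt-Rnr1 antisense count was 2. No control sample is tied to the table, the rate of chance matches at these lengths was not measured, and a match elsewhere in the genome was not tested.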

How the results depend on the processing

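No paired analysis was possible because the table is 1 pool and no column carries a replicate number. The antisense share of mt-Rnr1 was 36.1% and moved to 40.6% by distinct sequences, 44.6% by start positions, 30.3% without the most read start position of each strand, 27.8% without both most read bins and 35.2% in 40-base reads, and it turned round to 59.5% in 36-base reads. That 36-base share turned round to 45.9% by start positions and 35.1% without both most read bins. The antisense share of mt-Rnr2 was 22.97% and moved to 26.9%, 44.6%, 26.6%, 31.8% and 22.2% under the same choices in the same order, to 20.9% in 36-base reads, 23.6% with no mismatch, 23.7% with 8 leading bases left out, 22.1% with at least 30 matched bases, 17.9% with no other gene within 1 further mismatch and 23.2% with several equal placements included, below 50% in each. The sense ratio per kb of mt-Rnr1 over mt-Rnr2 was 1.26 and moved to 1.37 with no mismatch, 1.29 with up to 1 mismatch and 1.55 without the most read start positions, and it turned round to 0.738 by start positions, 0.642 without both most read bins and 0.929 in 36-base reads. The leading sense bin of mt-Rnr1 held 75.9% and moved to 71.3% by distinct sequences, 11.4% by start positions, 76.2% with 8 leading bases left out, 76.4% with at least 30 matched bases, 72.04% without the most read start positions, 60.6% in 36-base and 76.8% in 40-base reads. That of mt-Rnr2 held 53.6% and moved to 31.4%, 6.80% and 33.8% by distinct sequences, by start positions and without the most read start positions, to 50.8% with no mismatch, 53.1% with up to 1 mismatch, 53.2% with several equal placements included and 50.1% in 36-base reads. By start positions the leading sense bins were others, 751 to 800 in mt-Rnr1 and 101 to 150 in mt-Rnr2. Counted this way, a bin can hold only about as many starts as it has bases. The sense starts numbered 287 in mt-Rnr1 and 644 in mt-Rnr2. A low share by start positions was therefore largely fixed in advance and says little about the piles of reads. The cause of the other shifts was not tested. The 2 read lengths and the leading bins were added as alternatives after seeing the data. Leaving out reads that match nuclear copies of mitochondrial DNA was not run, since no genome was used here.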
